A study of Mus musculus with 6 samples.

Results

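Metabotropic glutamate receptors are G-protein-coupled receptors that tune synaptic strength, and Homer proteins are the scaffolds that tie some of them to the postsynaptic density. 8 of the 24062 gene symbols in the deposited tables are described here, chosen by symbol: the receptor genes Grm2, Grm3, Grm4, Grm5, Grm7 and Grm8 and the scaffold genes Homer2 and Homer3. All 8 passed the filter on low counts. They were measured in dissected ventral dentate gyrus of male C57black 6 mice, with 3 libraries of unstressed controls and 3 of mice under chronic restraint, a repeated confinement. The labels call the replicates biological. They give no age, no duration of restraint and no count of animals in a library. P-values set the difference between groups against the spread of these libraries, and how many animals that spread covers is not known. The study concerns the glial glutamate exchanger xCT and resilience to stress.

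The receptors fall into 3 groups. Group I, here Grm5 (mGlu5), couples to Gq proteins, phospholipase C and calcium release, mostly on the postsynaptic side and in astrocytes. Group II, Grm2 (mGlu2) and Grm3 (mGlu3), and group III, Grm4, Grm7 and Grm8, couple to Gi/o proteins, lower cyclic AMP and commonly act as presynaptic brakes on transmitter release. In the hippocampus mGlu2 is known from granule cells and their mossy fibres, and mGlu3 also from astrocytes. Homer proteins bind a short proline-rich peptide in mGlu5, in the inositol trisphosphate receptor and in Shank scaffolds, and so link the receptor to calcium stores.

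Coding bases that match the letters of that Homer-binding peptide are shown first, for Grm5 and for some of the other genes described here. The letters searched were CCNCCNNNNNNNTTC and CCNCCNNNNNNNTTT, read in the coding frame and on the coding strand only, which stand for a pair of proline codons, any pair of codons and a phenylalanine codon. Of 21739 genes with a complete coding sequence in GENCODE M21, 6.9% held a match, so a match by itself describes letters and not a binding site. Grm5 held 1 match, at bases 3466 to 3480 of 3612 coding bases, in the part that encodes the intracellular tail. Grm2 and Grm7 each held 1 match near the start of the coding sequence, at bases 556 to 570 and 598 to 612, in the part that encodes the extracellular domain. Grm3, Grm4, Grm8, Homer2 and Homer3 held 0. 3 partner genes, picked from those with a match, are shown beside them. They are Itpr1, the inositol trisphosphate receptor, Shank3, a postsynaptic scaffold, and Dagla, which makes the endocannabinoid released after mGlu5 activation. Dlgap3, Agap2 and Ryr3, described below with the scaffolds, held 0. In each line the capitals mark the 15 matched bases.
Grm5: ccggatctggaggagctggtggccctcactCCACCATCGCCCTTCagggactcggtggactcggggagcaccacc
Itpr1: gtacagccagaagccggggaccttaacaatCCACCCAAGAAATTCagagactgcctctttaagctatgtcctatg
Shank3: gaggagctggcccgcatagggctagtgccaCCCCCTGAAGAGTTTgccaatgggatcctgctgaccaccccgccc
Dagla: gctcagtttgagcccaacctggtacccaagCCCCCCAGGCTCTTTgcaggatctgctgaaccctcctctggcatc
Grm2: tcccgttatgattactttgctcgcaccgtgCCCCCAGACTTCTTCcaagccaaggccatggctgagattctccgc
Grm7: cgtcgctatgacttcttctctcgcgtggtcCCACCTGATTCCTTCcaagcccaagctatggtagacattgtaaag
On GRCm38 the Grm5 stretch lies at chr7:88130693-88130767 on the plus strand and the Grm2 stretch at chr9:106651084-106651158 on the minus strand. The Grm7 stretch lies at chr6:110914375-110914449 on the plus strand, the Shank3 stretch at chr15:89549173-89549247 on the plus strand and the Dagla stretch at chr19:10247835-10247909 on the minus strand. The Itpr1 stretch crosses an intron between chr6:108241286 and 108339532. Shank3 held a second match, at bases 2722 to 2736 of its coding sequence.

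Receptor genes of one family can share sequence, so the transcripts of the 8 genes were compared for stretches that could draw the same reads. The longest exact stretch in the same orientation, over 28 pairs of genes, was 27 bases, between Grm3 and Grm4, against a read length of 100 bases. The next was 26 bases, between Grm4 and Grm7. Both are printed because they set the limit on reads that could be shared between receptors.
Grm3 and Grm4: ggcttcaccatgtacaccacctgcatc
Grm4 and Grm7: tgtactgtgtatgccatcaagactcg
In the opposite orientation the longest was 36 bases, between Grm5 and Homer2, so no read of full length matches the annotated transcripts of 2 of these genes exactly. Overlap with other genes is a separate matter. Of the exon bases of Homer3, 25.4%, or 874 bases, are also exon of the RNA helicase gene Ddx49 on the other strand, and the strand setting of the counting is not given in the sources used here. Antisense genes without a row in the deposited tables share 470 exon bases with Grm2, 525 with Homer2 and 130 with Grm7.

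All 8 are annotated as protein-coding genes. Grm2 lies on chromosome 9 from 106643095 to 106656082 and Grm3 on chromosome 5 from 9485541 to 9725170. Grm4 lies on chromosome 17 from 27422387 to 27521403 and Grm5 on chromosome 7 from 87584168 to 88134907. Grm7 and Grm8 both lie on chromosome 6, from 110645581 to 111567230 and from 27275119 to 28135178. Homer2 lies on chromosome 7 from 81600481 to 81707527 and Homer3 on chromosome 8 from 70282827 to 70294361. Homer3 spans 11.5 kb and Grm2 13.0 kb, while Grm7, the longest, spans 921.6 kb.

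The libraries held 8305753 to 10107953 gene counts. Levels are given in CPM, counts brought to a common library total, after scaling between libraries by the trimmed mean of M values (TMM). The least counted library of any of the 8 genes held 107 reads, for Grm4 in stress replicate 3, so every level lies far above the 0.297 to 0.361 CPM that a count of 0 allows. Stress replicate 1 stood apart from the other 5 libraries. The summed level of 10 dentate granule neuron markers was 679.6 CPM in it and 1200.1 to 1572 CPM in the others, and all 10 were lowest there. The 6 choroid plexus markers summed to 4737 CPM against 24.3 to 32.6 CPM, and the 6 measured striatal markers to 899.6 against 182 to 199 CPM. The 5 CA3 pyramidal markers summed to 1643 CPM against 924 to 1168 CPM, and the 5 oligodendrocyte markers to 4161 against 1729 to 2731 CPM. The 4 ependymal markers summed to 77.7 against 6.76 to 10.6 CPM. No marker of any list was at 0 in all libraries. Fold changes of the 8 genes and of named pathway genes, and counts by sign and by edgeR's quasi-likelihood p, are therefore given below with and without stress replicate 1. The counts of groups that do not overlap, the per-kilobase levels and the searches for similar patterns are given with all libraries. In bulk tissue, fewer cells of a type and less RNA per cell cannot be told apart.

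Per kilobase of merged exon, Grm5 was the most abundant of the 8 genes in controls, at 65.2 ± 5.52 CPM per kb (SD, n = 3). Grm3 followed at 45.8 ± 2.52 and Grm7 at 25.2 ± 0.435 CPM per kb. Grm2 and Homer2 came next at 13.1 ± 0.638 and 12.6 ± 0.268 CPM per kb, with control ranges that overlapped. Homer3 was at 6.40 ± 2.59 CPM per kb. Grm4 and Grm8 were lowest, at 3.46 ± 0.306 and 2.83 ± 0.674 CPM per kb, again with overlapping ranges. The 5 other neighbours in this order did not overlap among controls, and the highest mean was 23.1 times the lowest. Divided by the longest transcript instead, a length chosen after seeing the data, the pairs Grm2 and Homer2, and Grm4 and Grm8, changed places and the rest of the order held. In stress the largest departures from this order were both in stress replicate 1, where Grm2 was at 3.61 and Homer3 at 19.0 CPM per kb.

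**Figure D1:**
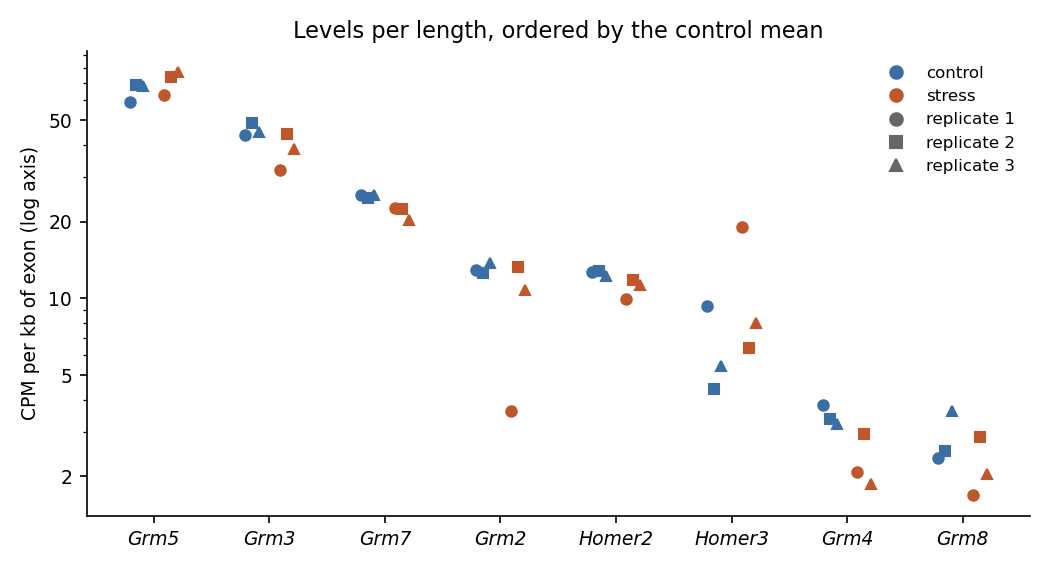
Level of each gene per kilobase of exon in CPM per kb on a log axis, with blue points for the 3 control libraries and orange points for the 3 stress libraries, ordered by the control mean. Grm5 was highest in every library. Grm2 and Homer3 in stress replicate 1 lay farthest from the other points of their gene.

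None of the 8 genes passed the threshold for stress against control, an adjusted p of 0.05 by edgeR's quasi-likelihood test over all 14058 tested genes, where 4 genes or 0.0285% passed. 6 of the 8 had negative log2 fold changes, a sign held by 49% of tested genes, and 2 positive ones, against 51%. For 3 genes, Grm4, Grm7 and Homer2, the highest stress library lay under the lowest control, which held for 7.84% of all tested genes. At an unadjusted p under 0.05 there were 4, Grm3, Grm4, Grm7 and Homer2, all lower, against 4.85% of all tested genes. Without stress replicate 1 there were 3 at that unadjusted p, Grm4 and Grm7 lower and Grm5 higher, against 6.13% of tested genes lower and 5.4% higher. The unadjusted p-values of edgeR's quasi-likelihood test were then 0.00914, 0.00664 and 0.0183. The median log2 fold change of the 8 was -0.24 and that of all tested genes 0.0038. Without stress replicate 1 the median was -0.14, with the same 6 genes lower. DESeq2, edgeR's exact test and limma-voom called 0 of the 8. Of all tested genes DESeq2 called 0.761%, the exact test 0.932% and limma-voom 0.00711%. EdgeR's quasi-likelihood test called 0.289% of genes without stress replicate 1 and 0% with the replicate number as a block.

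**Figure D2:**
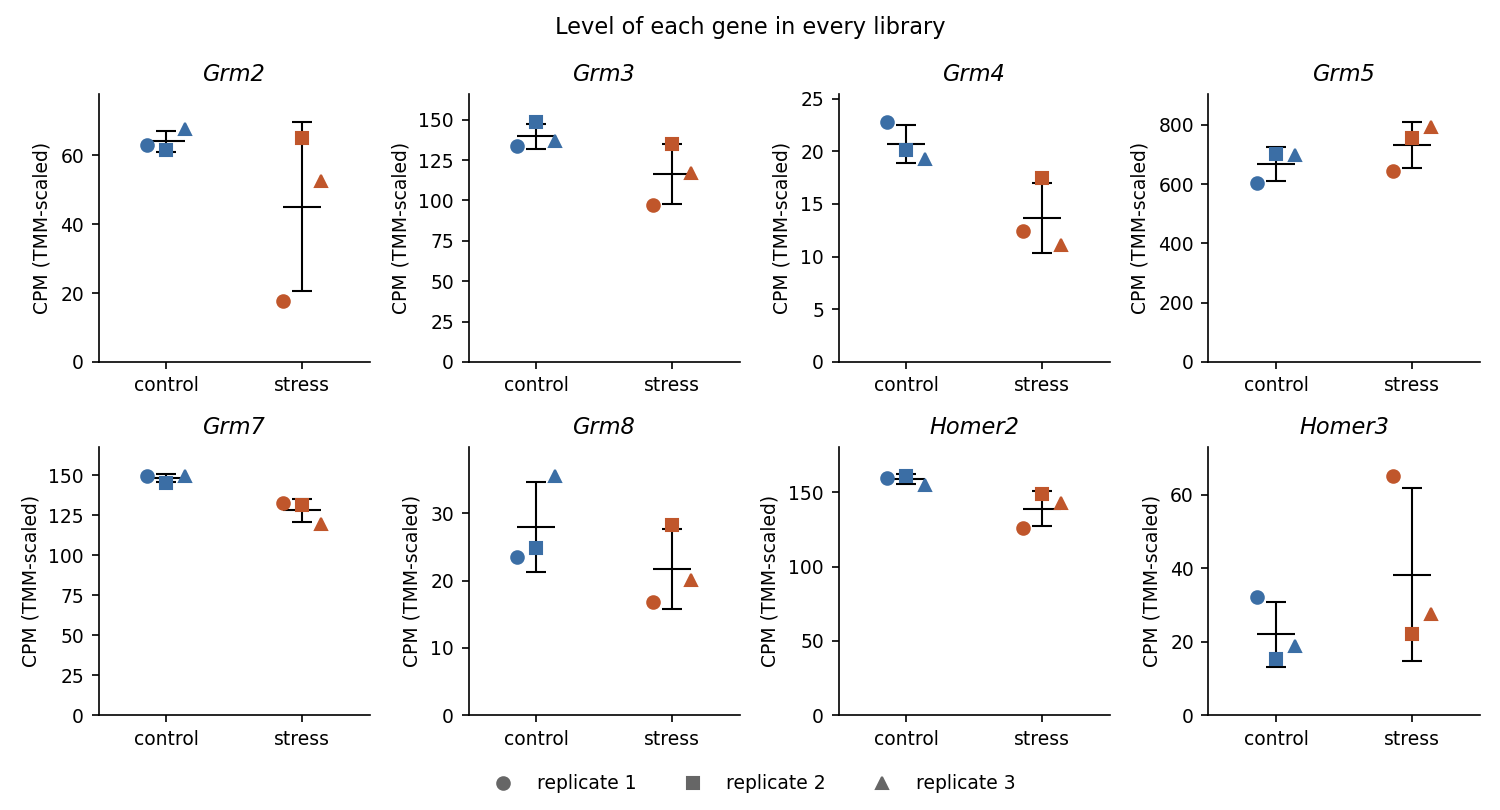
TMM-scaled CPM of each gene in the 3 control (blue) and 3 stress (orange) libraries, with the mean as a long bar and the SD as error bars. The groups separate for Grm4, Grm7 and Homer2, while the spread of Grm2 and Homer3 in stress comes with replicate 1, at 17.7 and 65.3 CPM.

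Grm5, the group I receptor, was at 602, 701 and 699.6 CPM in control replicates 1, 2 and 3 and at 646, 757 and 793 CPM in stress replicates 1, 2 and 3. Control replicate 1 was the lowest library and stress replicate 1 lay within the control range, so the groups overlapped. EdgeR gave a log2 fold change of 0.13 (SE 0.10) and an adjusted p of 0.781, and limma-voom a 95% interval of -0.089 to 0.35. Leaving out stress replicate 1, control replicate 1 or stress replicate 3 gave 0.22, 0.064 and 0.077, at adjusted p-values by edgeR of 0.298, 0.936 and 0.910. Its variation over the 6 libraries was close to that of a typical gene, with 47.04% of tested genes less variable by SD of log2 CPM.

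Grm2, the group II autoreceptor, showed the widest spread of the 6 receptor genes. Controls were at 63.1, 61.6 and 67.6 CPM and stress libraries at 17.7, 65.0 and 52.7 CPM. Stress replicate 1 was at 0.276 times the control mean, stress replicate 2 lay within the control range and stress replicate 3 below it. By edgeR the log2 fold change was -0.51 (SE 0.38) at an adjusted p of 0.771, and limma-voom gave -0.71 with a 95% interval of -1.59 to 0.17. Without stress replicate 1 it was -0.13 and without stress replicate 2 -0.86. Granule neuron markers were low in that same library. Prox1, the granule cell fate factor, was at 48.5 CPM against 92.5 to 133 in the other 5. C1ql2 was at 20.96 against 62.6 to 83.5 and C1ql3 at 112 against 295 to 356. Other granule markers fell less, with Pitpnm2 at 163 against 219 to 310 and Lct at 46.2 against 46.5 to 91.2. Summed markers of CA1 and subiculum were also lowest there, at 339 against 418 to 577 CPM. Those of thalamus and habenula were at 45.2 against 62.3 to 139 CPM. Those of neocortex and entorhinal cortex were at 402 against 411 to 446 CPM. In each of these last lists some genes were not lowest there. The part of any of these cells in the Grm2 value was not tested.

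Grm3, the other group II gene, was at 134, 148 and 137 CPM in controls and 97.4, 135 and 117 CPM in stress. Stress replicate 1 was again lowest, and stress replicate 2 lay within the control range. EdgeR put the log2 fold change at -0.26 (SE 0.11) and the adjusted p at 0.567, and leaving out stress replicate 1 gave -0.15. Summed astrocyte markers, 7 genes, were at 1994 CPM in stress replicate 1, 2169 to 2267 in stress replicates 2 and 3 and 2241 to 2578 in controls. Of the 7 genes 4 were lowest in stress replicate 1, among them the water channel gene Aqp4 and the glutamate transporter gene Slc1a3. Gfap, at 277 CPM in it, lay within its control range of 268 to 346. The part of astrocytes in the Grm3 value was not tested. The ratio of Grm2 to Grm3 in CPM was 0.415 to 0.495 in controls, 0.482 and 0.450 in stress replicates 2 and 3 and 0.182 in stress replicate 1, so the pair of group II genes parted in that library alone.

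Grm4, a group III receptor gene, had the most negative log2 fold change of the 8 by edgeR's quasi-likelihood test with all 6 libraries, while Grm2 was more negative by limma-voom, with the replicate number as a block, and without stress replicate 2 or 3. Grm4 was at 22.8, 20.1 and 19.3 CPM in controls and 12.4, 17.5 and 11.1 CPM in stress, with no overlap. Stress replicate 3, not replicate 1, was the lowest library. Its log2 fold change was -0.60 (SE 0.16), at an unadjusted p of 0.00688 and an adjusted p of 0.368 by edgeR. It stayed negative and did not pass under any alternative run, from -0.81 without stress replicate 2, where the adjusted p was 0.0825, to -0.46 without stress replicate 3. The value was -0.54 without stress replicate 1.

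Grm7, whose product sits in the presynaptic active zone and answers to high glutamate, was the steadiest of the group III genes. Controls were at 149.7, 145 and 149 CPM and stress libraries at 133, 132 and 119.6 CPM. All 3 stress libraries lay below the lowest control, and stress replicate 1 was the highest of them. The difference was small, a log2 fold change of -0.21 (SE 0.07) at an unadjusted p of 0.0115 and an adjusted p of 0.447 by edgeR. Without stress replicate 1 it was -0.24, and the alternatives ran from -0.24 to -0.16.

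Grm8, a high-affinity presynaptic receptor, was at 23.5, 24.8 and 35.6 CPM in controls and 16.8, 28.3 and 20.2 CPM in stress. Control replicate 3 was the highest library, and stress replicate 2 lay above the other controls. Its log2 fold change of -0.37 (SE 0.21) came with an adjusted p of 0.712 by edgeR. Leaving out control replicate 3, stress replicate 1 or stress replicate 2 moved the value to -0.15, -0.22 and -0.60. For Grm4, Grm7 and Grm8 alike, the mean without stress replicate 1 stayed below the control mean, at 14.3, 126 and 24.2 CPM against 20.7, 148 and 28.0 CPM.

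Homer2, a long-form Homer that bridges receptors and scaffolds, was at 159.8, 161 and 155 CPM in controls and 126, 149 and 143 CPM in stress. The groups did not overlap, though stress replicate 2 lay just under the lowest control. This gave a log2 fold change of -0.19 (SE 0.08), an unadjusted p of 0.0349 and an adjusted p of 0.540 by edgeR, and -0.12 without stress replicate 1. Grm5 and Homer2 had opposite signs, and the ratio of Grm5 to Homer2 in CPM was 3.77, 4.35 and 4.52 in controls and 5.14, 5.09 and 5.56 in stress. The ratio was thus higher in each stress library than in each control. It was formed after the values were seen, and was not tested.

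Homer3, another long-form Homer, had the log2 fold change farthest from 0 of the 8 genes by edgeR with all 6 libraries, and the widest SE. Without stress replicate 1 or control replicate 2 that of Grm4 was farther from 0. Controls were at 32.1, 15.2 and 18.7 CPM and stress libraries at 65.3, 22.0 and 27.5 CPM. Stress replicate 1 was at 2.97 times the control mean, and control replicate 1 lay above stress replicates 2 and 3. At 0.81 (SE 0.41), its log2 fold change had an adjusted p of 0.645 by edgeR and a 95% interval of -0.21 to 1.68 by limma-voom, and it was 0.19 without stress replicate 1. Markers of CA3 pyramidal neurons were also high there: the vesicle protein gene Sv2b was at 907 CPM in stress replicate 1 against 475 to 624 in the other 5, and Cpne4 at 168 against 81.7 to 103 CPM. Markers of choroid plexus, striatum, oligodendrocytes and ependymal cells were high in that library too. The part of any of these cells in the Homer3 value was not tested. Ddx49, which overlaps Homer3 on the other strand, was at 23.4 CPM in stress replicate 1 against 19.4 to 25.7 in the other 5, a log2 fold change of 0.06 (SE 0.12) between groups.

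**Figure D3:**
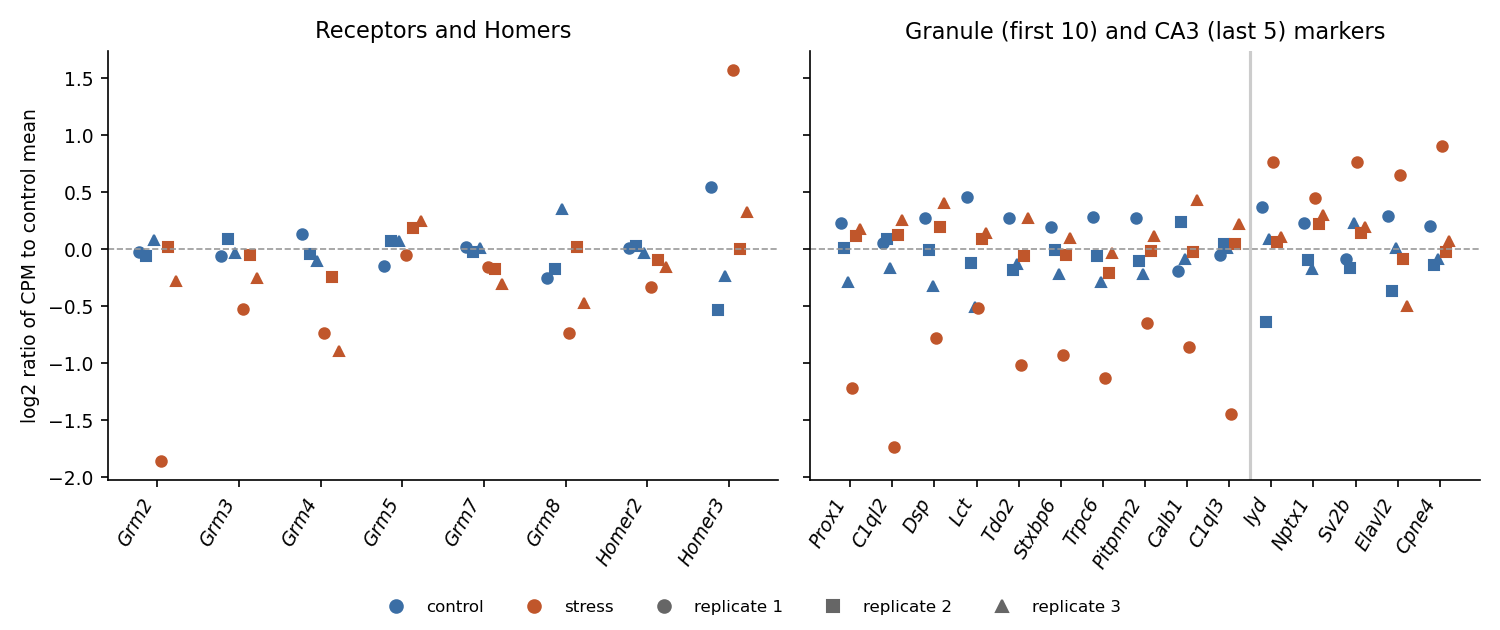
Log2 ratio of CPM in each library to the control mean, for the 8 genes (left) and for 10 granule neuron and 5 CA3 pyramidal markers (right), with control libraries in blue and stress libraries in orange. In stress replicate 1 (orange circles) Grm2 and all 10 granule markers lay low, and Homer3 and all 5 CA3 markers lay high. Markers of choroid plexus, striatum, oligodendrocytes and ependymal cells, not shown, were also high in that library. Summed markers of CA1 and subiculum, thalamus and habenula, neocortex and entorhinal cortex, and astrocytes, not shown, were lowest in it.

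Variation between libraries differed among the 8 genes. By SD of log2 CPM over the 6 libraries, Grm2 exceeded 98.3% of tested genes and Homer3 also 98.3%, Grm4 89.8%, Grm8 87.7% and Grm3 68.7%. Grm5, Homer2 and Grm7 lay below the median gene. Stress replicate 1 was the lowest of the 6 libraries for 4 of the 8 genes, Grm2, Grm3, Grm8 and Homer2, and the highest for 1, Homer3. Over all tested genes it was lowest for 25.2% and highest for 25.7%.

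**Figure D4:**
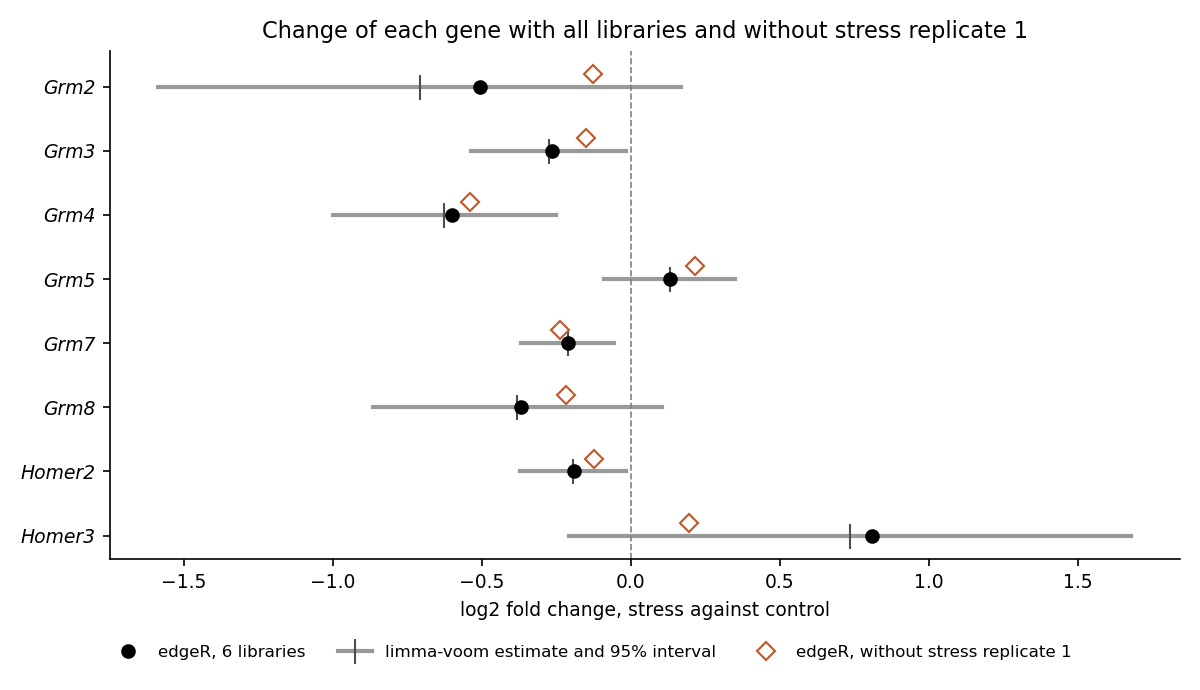
Log2 fold change of each gene, stress against control, from edgeR with all 6 libraries (black) and without stress replicate 1 (open diamonds), with the limma-voom estimate and its 95% interval (grey). Grm4 and Grm7 kept similar values without that library, -0.54 and -0.24, while Grm2 and Homer3 moved toward 0, to -0.13 and 0.19.

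For the 5 genes more variable than the median gene, the genes with the most similar pattern were sought among 12536 genes, by the root mean square difference of centred log2 CPM over the 6 libraries. For Grm2 the nearest was Amn, at a difference of 0.14, followed by the hyaluronan-degrading factor gene Cemip at 0.17, with 26.6 CPM in stress replicate 1 and 67.8 to 81.2 in the other libraries. For Homer3 it was the nectin adhesion gene Pvrl3, at 0.15, with 113 CPM in stress replicate 1, 45.4 in control replicate 1 and 20.6 to 40.6 in the rest. For Grm3 the nearest was the semaphorin gene Sema6d at 0.028, for Grm4 the glypican gene Gpc6 at 0.057 and for Grm8 Mctp2 at 0.084. Gpc6 was at 17.7, 14.9 and 15.2 CPM in controls and 10.2, 13.0 and 9.14 CPM in stress. It shares the ranking of stress libraries with Grm4, a likeness for which the search picked it.

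Of 60 tested genes on which these receptors act or depend, none passed by edgeR's quasi-likelihood test. 36 had positive and 24 negative log2 fold changes, against 51% and 49% of all tested genes, with a median of 0.064. The groups did not overlap for 13 with higher and 4 with lower levels in stress, against 6.76% and 7.84% of all tested genes. At an unadjusted p under 0.05 there were 11 higher and 1 lower, against 3.86% and 4.85%. DESeq2 called 2 of the 60, both higher, and edgeR's exact test 1, against 0.761% and 0.932% of all tested genes. With stress replicate 1 left out none passed by edgeR's quasi-likelihood test, 41 were positive and 19 negative, and the median was 0.068. There were then 16 higher and 3 lower at an unadjusted p under 0.05, against 5.4% and 6.13% of all tested genes.

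In the Gq arm that Grm5 feeds, 10 of 16 genes were positive, where 51% of all tested genes were. The median log2 fold change was 0.11. Without stress replicate 1 there were 10 of 16 positive, with a median of 0.024. Prkcb, for protein kinase C beta, was at 957, 993 and 1089 CPM in controls and 1562, 1216 and 1269 CPM in stress, a log2 fold change of 0.41 (SE 0.10). Its adjusted p was 0.308 by edgeR and 0.0280 by DESeq2, with a range of 0.0280 to 0.723, and the value without stress replicate 1 was 0.29. Gna11, a Gq family subunit, was at 101 ± 6.54 CPM in controls and 114 ± 4.76 in stress, a log2 fold change of 0.18 (SE 0.07), and of 0.15 without stress replicate 1. Itpr1 and Dagla, named here for their sequences, did not pass, at 0.13 (SE 0.09) and 0.21 (SE 0.10) on the log2 scale, and 0.091 and 0.29 without stress replicate 1. Itpr1 was at 0.22 without control replicate 2 and 0.084 without control replicate 3.

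The 16 genes of the Gi/o arm were divided evenly, 8 positive and 8 negative, with a median of 0.0047. The division was 9 and 7 without stress replicate 1, with a median of 0.032. Adcy8, a calcium-stimulated adenylyl cyclase, was at 55.8, 56.6 and 65.3 CPM in controls and 19.4, 46.3 and 37.0 CPM in stress. On the log2 scale the difference of -0.79 (SE 0.26) was -0.51 without stress replicate 1, at adjusted p-values of 0.457 and 0.0807 by edgeR. Adcy5, a cyclase abundant in striatal neurons, was at 87.6, 108 and 99.6 CPM in controls and 206, 112 and 126 CPM in stress. Its value of 0.59 (SE 0.20) was 0.28 without stress replicate 1, the library in which all 6 measured striatal markers were highest. Markers of choroid plexus, CA3 pyramidal neurons, oligodendrocytes and ependymal cells were high in it as well. The part of any of these cells in the Adcy5 value was not tested. Adcy9 was at 211 ± 0.804 CPM in controls and 247 ± 24.2 in stress, a log2 fold change of 0.23 (SE 0.08), and of 0.17 without stress replicate 1.

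Of the 17 Homer-binding and receptor scaffold genes 14 were positive, against 51% of all tested genes, and the median log2 fold change was 0.15. Leaving out stress replicate 1 gave 15 positive and a median of 0.18. Dlgap3, a scaffold between PSD-95 and Shank, was at 148, 133 and 132 CPM in controls and 167, 159 and 165 CPM in stress, a log2 fold change of 0.25 (SE 0.07). Agap2, the GTPase that couples Homer and mGlu5 to PI3-kinase, was at 642, 621 and 597 CPM in controls and 679, 753 and 805 CPM in stress, at 0.27 (SE 0.08). Dlgap3 had 0.23 and Agap2 0.33 on the log2 scale without stress replicate 1. Ryr3, a calcium release channel, was at 0.39 (SE 0.14) and at 0.21 without stress replicate 1. These 3, named because they had the smallest p-values of the list by edgeR, did not overlap between groups. Their adjusted p-values by edgeR were 0.355, 0.428 and 0.505. In the whole list 5 of 17 genes lay higher in stress without overlap, against 6.76% of all tested genes, and 0 lower, against 7.84%. Shank3 was at 117 ± 13.2 CPM in controls and 125 ± 3.84 in stress, a log2 fold change of 0.10 (SE 0.09). Leaving out control replicates 1, 2 and 3 in turn moved this value to 0.19, 0.064 and 0.048, and leaving out stress replicate 1 to 0.078.

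The 5 genes listed as partners of group III receptors had a median of -0.04, and the smallest adjusted p was 0.795 by edgeR. Both moved on leaving out stress replicate 1, to 0.048 and 0.181. Pick1, which binds the tail of mGlu7, was at 33.2 ± 1.04 CPM in controls and 30.9 ± 0.925 in stress, a log2 fold change of -0.10 (SE 0.08), and of -0.12 without stress replicate 1. Grip1 was at 0.07 (SE 0.08) on the log2 scale, at 0.037 once control replicate 2 was left out and at 0.077 without stress replicate 1. The transsynaptic ligand gene Elfn2 was at 0.10 (SE 0.15). Leaving out stress replicates 1, 2 and 3 in turn gave 0.27, 0.041 and -0.0060 for it, and leaving out control replicate 2 gave 0.17. The 6 desensitisation genes, receptor kinases and arrestins that switch receptors off, had a median of -0.04 as well, and of 0.021 without stress replicate 1. The arrestin gene Arrb1 was at 344 ± 6.65 CPM in controls and 310.3 ± 21.3 in stress, at -0.15 (SE 0.07) and -0.092 without stress replicate 1. The receptor kinase genes Grk6 and Grk5 had 0.09 (SE 0.07) and -0.10 (SE 0.18). Grk6 had 0.055 when control replicate 1 was left out and 0.10 when stress replicate 1 was, and Grk5 at -0.27 without stress replicate 1, -0.017 without control replicate 2 and 0.056 without stress replicate 3.

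**Figure D5:**
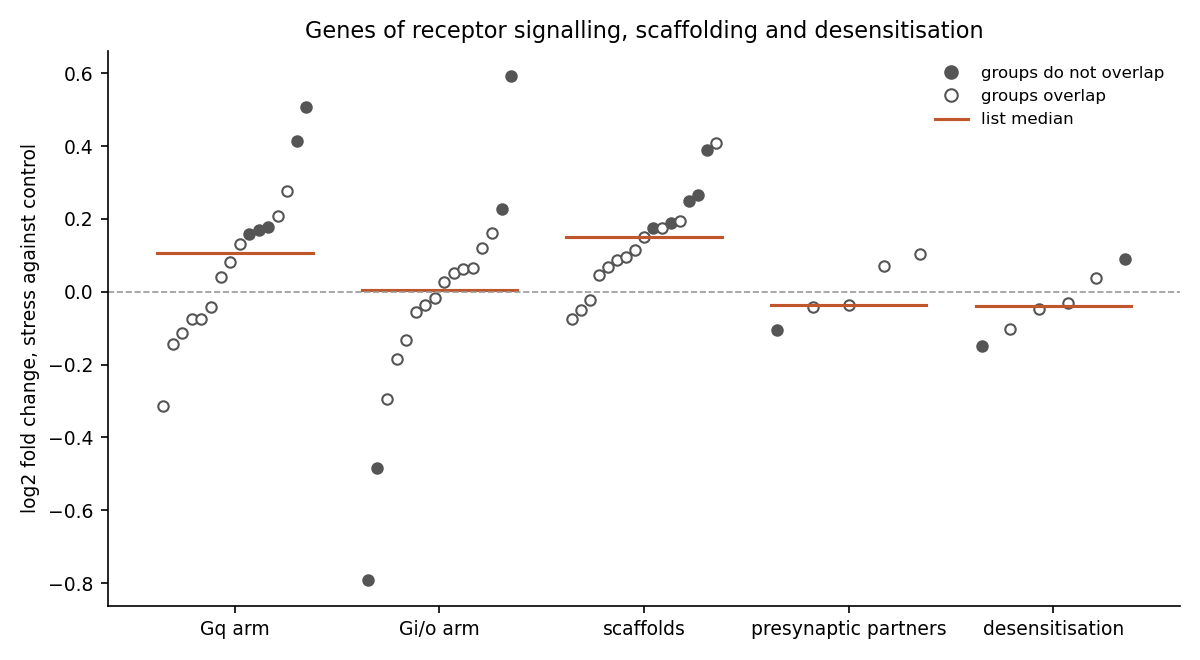
Log2 fold change, stress against control, of 60 genes in 5 lists, where each point is 1 gene, filled where the groups did not overlap, and the orange line is the list median. The scaffold list has 14 of 17 points above 0, against 51% of all tested genes, with a median of 0.15. The Gi/o list ranges from -0.79 to 0.59.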

How the data were processed

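The authors deposited whole-number read counts per gene symbol, 1 table per library. Per the submitters' processing notes, which give no role or order, the tools were HTSeq 0.6.1, TopHat2 2.0.9, edgeR 3.12.0, Trimmomatic 0.33 and FastQC 0.11.3, on build GRCm38 (mm10). Per the labels' protocols, libraries came from a stranded total RNA kit with ribosomal RNA removed. The annotation is not given in the sources used here, nor are the counting options. Per the values in the deposited tables, 59.5% to 63.1% of listed reads had no gene. They were left out.

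In R 4.3.3, edgeR 4.0.16 with its default filter kept 14058 genes, TMM scaled the libraries, and the two-sided quasi-likelihood F-test compared 3 stress with 3 control libraries, with group as the single term and Benjamini-Hochberg adjustment over all tested genes. SEs and 95% intervals come from limma 3.58.1 voom. Log2 CPM used a prior count of 2. Positions, exon lengths and sequences come from GENCODE M21 on GRCm38, matched by symbol, for all 8 genes. The quasi-likelihood fit was tested on simulated counts with known changes. These held no outlying library, so the test does not cover a case like stress replicate 1.

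The 8 genes, pathway lists and markers were chosen with earlier results of these data known. All 8 genes are named, with, from each pathway list, the genes past the threshold or the 3 with the smallest p. 1 gene that this rule takes is not reported here. For each of the 8 that varied more than the median gene, the most similar genes were sought. Other named genes are markers or were chosen for their sequences or overlap. Alternatives were other scalings, filters and tests, including DESeq2 1.42.0, each library left out in turn, a block for the replicate number and a looser threshold of 0.10. The main test did not pair the libraries by replicate number.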

Additional observations from a re-analysis of the deposited data

How the results depend on the processing

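The count of the 8 genes past the threshold was 0 under every alternative run, and none of their 128 alternative values changed sign or passed, with a lowest adjusted p of 0.0825. Over all genes, 4 were called by edgeR's quasi-likelihood test, 107 by DESeq2, 131 by the exact test and 1 by limma-voom, and between 0 and 41 with 1 library left out. The 0 came on leaving out control replicate 1, 2 or 3 or stress replicate 3, and the 41 and 28 on leaving out stress replicate 1 or 2. Of the pathway genes DESeq2 called 2 and the exact test 1. The cause was not tested. With the replicate number as a block, 0 genes were called. Correlations of same-numbered libraries' deviations were 0.137, -0.0076 and 0.043, and those of differently numbered libraries ran from -0.153 to 0.122. With so few libraries these values cannot show whether same-numbered libraries were handled together. Per kilobase of the longest transcript, control levels were 4.49 for Grm4, 83.0 for Grm5, 35.2 for Grm7, 5.83 for Grm8 and 14.4 CPM per kb for Homer2, since that length is shorter than the merged exons.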
